A study of Mus musculus with 8 samples.

Results

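Expression of 10 genes that the transcription factor NRF2 is known to switch on was followed across brain, kidney and liver of lead-exposed mice. They are Nqo1, Gclc, Gclm, Txnrd1, Srxn1, Cbr3, Osgin1, Slc7a11, Gsr and Ephx1, taken by name, with all 14 probes that carry these names on the array, and they make up 10 of 37325 gene names. For 3 weeks male mice were given drinking water with lead acetate, either 100 mg/L (the low dose) or 1000 mg/L (the high dose), or distilled water as control, and RNA came from small pieces of tissue. For brain and kidney all 3 doses were hybridised, and for liver the control and the high dose. A low-dose liver was not analysed here. Each of the 8 groups had 1 array, all on 1 slide. No difference within a tissue therefore has a replicate check. The labels give neither strain nor age, nor whether a sample pools mice or whether arrays of different tissues share a mouse.

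NRF2, encoded by Nfe2l2, is normally bound by KEAP1, which delivers it to a ubiquitin ligase for degradation. Oxidants and electrophiles, including thiol-reactive metals, modify cysteines of KEAP1, so that NRF2 accumulates, pairs with a small MAF protein and binds antioxidant response elements near its target genes. BACH1 competes for the same elements. The targets make glutathione, regenerate thiols with NADPH, and detoxify quinones, carbonyls and epoxides. Kidney and liver, which handle most xenobiotics and metals, are classic sites of this response.

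The RefSeq promoter table (GRCm38.p6, 250 bases before each start and 50 after) held 10 promoters of 8 of these genes, with none for Gclc and Gsr. The core of the antioxidant response element, TGACNNNGC, was searched on both strands in the 250 bases before the start. It was found in 2 of the 10 promoters, those of Gclm and Txnrd1, and in 10.2% of all 32851 promoters. The looser spelling TGANNNNGC, which contains every match of the core, was found in 6 of the 10 promoters, from 5 genes, and in 35.2% of all promoters. The 4 windows below show the core matches and the 2 matches of the looser form that read TGAGTCAGC, a spelling that overlaps the AP-1 site TGAGTCA. They are 59 bases long, written 5′ to 3′ on the strand that holds the match, with the match in capitals.
Gclm, chr3:122245398-122245456, minus strand: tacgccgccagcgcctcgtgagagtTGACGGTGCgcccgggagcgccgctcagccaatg
Txnrd1, chr10:82859089-82859147, minus strand: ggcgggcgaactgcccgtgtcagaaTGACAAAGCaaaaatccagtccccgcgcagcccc
Srxn1, chr2:152105454-152105512, plus strand: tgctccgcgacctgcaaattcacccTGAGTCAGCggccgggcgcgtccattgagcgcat
Osgin1, chr8:119437023-119437081, minus strand: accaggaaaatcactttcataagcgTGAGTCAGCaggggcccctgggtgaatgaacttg
The promoters of Nqo1, Cbr3 and Ephx1 held neither spelling, which says only that these letters are not in those windows. A match is a description of the sequence and not a measured binding site.

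Levels are log2 of the scanner's processed signal minus the 75th percentile of the same array, and differences are differences of such levels. The share of spots well above background ran from 53.4% to 67.1%. For a gene to count as higher or lower, 3 things were required. The difference had to reach 1 (2-fold), the probe had to be unsaturated and well above background on both arrays, and the difference had to exceed 3 array errors, where the array error combines the errors that the scanner software reports for both spots. Tissue identity was as labelled. The neuron markers had a median level of 5.06 to 5.10 on the brain arrays, the proximal tubule markers of 5.77 to 5.91 on the kidney arrays and the hepatocyte markers of 9.47 and 9.59 on the liver arrays. Within brain, the striatum markers had a median level of 0.78, 2.45 and 0.15 on the control, low-dose and high-dose arrays. The choroid plexus markers had medians of -0.81, -1.17 and -2.10 there. Whether the brain pieces differ in region was not tested, and this limits each brain comparison below. Summed levels of markers of other tissues differed between arrays as well. Spermatid markers, summed over 10 genes, stood at 3.37 on the high-dose brain array against -0.88 and -0.97 on the other brain arrays, and at 4.29 on the high-dose kidney array against 1.31 for control and 0.11 for low dose. Adrenal markers summed to 2.65 on the control kidney array and to 0.83 and 0.72 at the low and high dose. They summed to 4.08, 4.14 and 3.99 on the control, low-dose and high-dose brain arrays and to 2.24 and 2.53 on the liver arrays. The 20 hepatocyte markers summed to 4.89, 4.86 and 6.57 on the control, low-dose and high-dose kidney arrays and to 13.8 on both liver arrays. On the brain arrays they summed to 6.66, 6.44 and 5.54 in the same order of doses. The brightest genes of a list weigh most in such a sum, so a high sum alone does not identify a tissue.

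The 10 genes were measured unevenly across tissues. All members but Slc7a11, 9 of 10, were well above background on all 8 arrays. In the kidney at the high dose 3 of the 9 were higher than the control and none was lower, where 1.12% of 21354 genes tested were higher and 0.539% lower. The 3 were Cbr3, Ephx1 and Nqo1, enzymes that act on carbonyls, epoxides and quinones, while the glutathione and thioredoxin enzymes differed by 0.56 or less. In the liver at the high dose 1 of 9 was higher, Nqo1, and 1 was lower, Osgin1, where 0.344% of 19167 genes were higher and 0.459% lower (0.803% in either direction). The low-dose kidney had 0 of 9 members past the rule, where 0.22% of 20949 genes were higher and 0.272% lower. The brain had 0 of 10 at the low dose, where 0.441% of 22691 genes were higher and 0.304% lower, and 0 of 10 at the high dose, where 0.202% of 22796 were higher and 0.25% lower (0.452% together). In tissue pieces, a change in the number of cells of a type and a change in RNA per cell cannot be told apart.

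**Figure D1:**
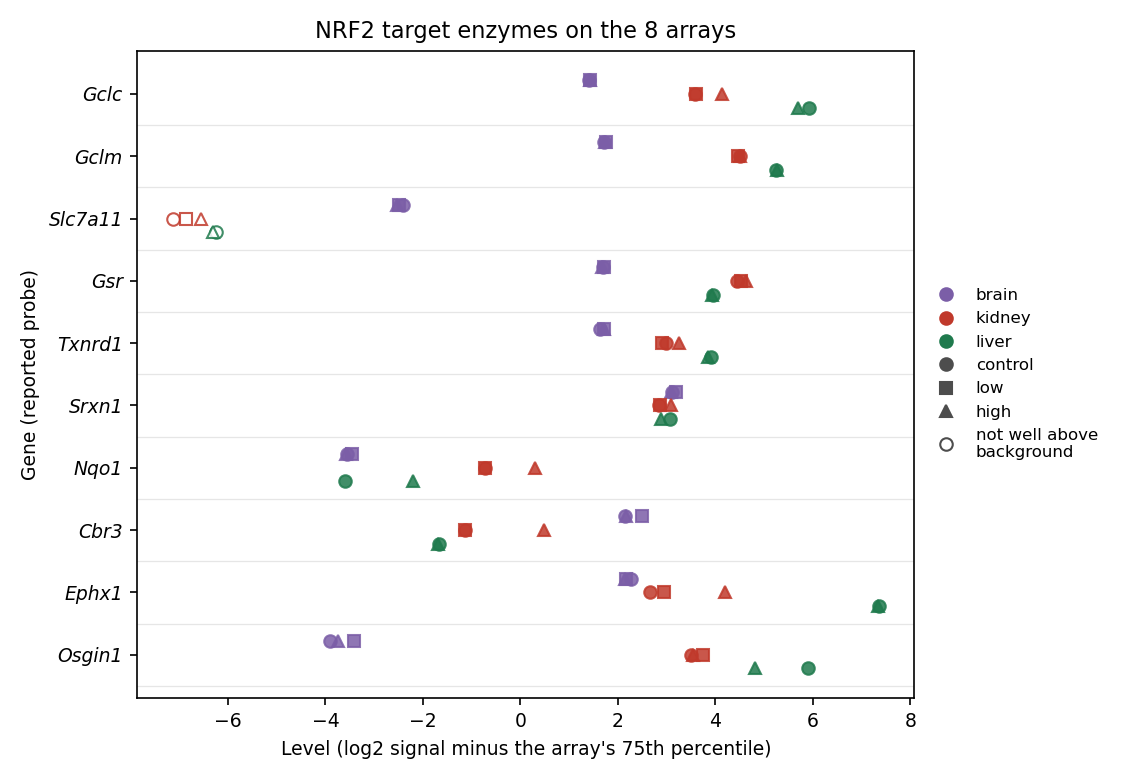
Level of each gene's reported probe on every array, as log2 signal minus the array's 75th percentile, with colour for tissue and shape for dose (circle control, square low, triangle high); open symbols were not well above background. The high-dose kidney triangles of Cbr3, Ephx1 and Nqo1 stand to the right of the other kidney symbols, while the brain symbols of most genes lie on top of each other.

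Cbr3, carbonyl reductase 3, reduces carbonyl compounds with NADPH. Its level was -1.14, -1.13 and 0.49 on the control, low-dose and high-dose kidney arrays. The liver stood at -1.66 and -1.69, and the brain at 2.14, 2.50 and 2.17 for control, low and high dose. The high-dose kidney alone stood apart within its tissue, by 1.63 (array error 0.21), or 3.09-fold, while the low-dose kidney differed from its control by 0.01. Among 21354 genes tested in that comparison, 91 had a larger difference. Cbr3 was lower in liver than in kidney on every array pair, so its high-dose kidney level lies above those of both liver arrays. The probe lies on chromosome 16 from 93691120 to 93691179, plus strand (mm9).

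Ephx1 encodes microsomal epoxide hydrolase, which opens reactive epoxides to diols. In kidney it stood at 2.66 for control, 2.94 for the low dose and 4.19 for the high dose. The brain levels were 2.26, 2.17 and 2.14, and both liver levels, 7.36 and 7.35, were far above those of any other array. The high-dose kidney differed from control by 1.53 (array error 0.20), or 2.90-fold, and 99 genes had a larger difference. The low-dose kidney differed by 0.28, which is within 3 array errors. The probe lies on chromosome 1 from 182919689 to 182919748, minus strand (mm9).

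Nqo1, the quinone reductase often used as a readout of NRF2, stood higher in both kidney and liver at the high dose. Its level was -0.72 in control kidney, again -0.72 with the low dose, and 0.30 with the high dose. In liver it was -3.60 in the control and -2.21 at the high dose, and in brain -3.56, -3.45 and -3.58. The high-dose difference was 1.02 in kidney (array error 0.21), or 2.02-fold, and 1.39 in liver (array error 0.32), or 2.62-fold, where 20 of 19167 genes had a larger one. The kidney value sits at the threshold, at 0.98 with quantile normalization and 0.89 with normexp background correction. The liver value was 0.82 with normexp, below the threshold. On the control liver array Nqo1, at -3.60, was close to the lowest well-above-background level, which averaged -3.99 over the liver arrays. A stricter filter on dim probes dropped the liver difference. The probe lies on chromosome 8 from 109912440 to 109912499, minus strand (mm9).

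Glutathione synthesis depends on the glutamate-cysteine ligase, made of the catalytic subunit Gclc and the modifier subunit Gclm, and on cystine import by Slc7a11. Gclc stood at 3.59, 3.61 and 4.14 in kidney, at 5.92 and 5.70 in liver and at 1.41, 1.42 and 1.42 in brain. The high-dose kidney was 0.56 above its control (array error 0.20), or 1.47-fold, short of the rule, and the liver difference was -0.22. Gclm stood at 4.46 to 4.51 in kidney, at 5.24 and 5.26 in liver and at 1.71, 1.75 and 1.75 in brain. Its largest difference from a control in any tissue was 0.04. Of the 4 probes of Slc7a11, 2 were well above background on the 3 brain arrays and none on a kidney or liver array. The reported probe stood at -2.41, -2.49 and -2.54 in brain, at least 4.76-fold above kidney and at least 2.85-fold above liver. The other measured probe gave -3.65, -3.52 and -3.22 in brain, so the probes disagree on the sign of the high-dose difference (-0.13 and 0.43). The fold bounds set the brain mean of the reported probe against the lowest signal that counted as well above background on the dim arrays. No bound was computed for the other measured probe, which is dimmer in brain.

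Glutathione reductase, Gsr, returns oxidised glutathione to its reduced form with NADPH. It stood at 4.44, 4.52 and 4.63 in kidney, at 3.96 and 3.93 in liver and at 1.70, 1.71 and 1.67 in brain, with a high-dose kidney difference of 0.19 that is smaller than its array error of 0.20. Txnrd1, thioredoxin reductase 1, keeps thioredoxin reduced, and Srxn1, sulfiredoxin, repairs overoxidised peroxiredoxins. Txnrd1 stood at 2.98, 2.91 and 3.25 in kidney, at 3.91 and 3.86 in liver and at 1.64, 1.71 and 1.72 in brain. Its second probe gave 2.03, 2.01 and 2.22 in kidney, with the same order of doses. Srxn1 stood at 2.85, 2.86 and 3.09 in kidney, 3.08 and 2.88 in liver and 3.09 to 3.18 in brain. The high-dose kidney differences of Txnrd1 and Srxn1 were 0.27 and 0.24 (array error 0.20 for each), positive but far short of the rule.

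Osgin1 encodes a growth inhibitor induced by oxidative stress. It stood at 3.50, 3.75 and 3.54 in kidney and at -3.90, -3.42 and -3.75 in brain. In liver it was 5.90 in the control and 4.82 at the high dose, a difference of -1.09 (array error 0.20), or 2.13-fold lower, and 57 of 19167 genes had a lower difference. Osgin1 and Nqo1 therefore differed from the liver control in opposite directions on the same array. With quantile normalization the Osgin1 difference was -0.94, short of the rule.

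**Figure D2:**
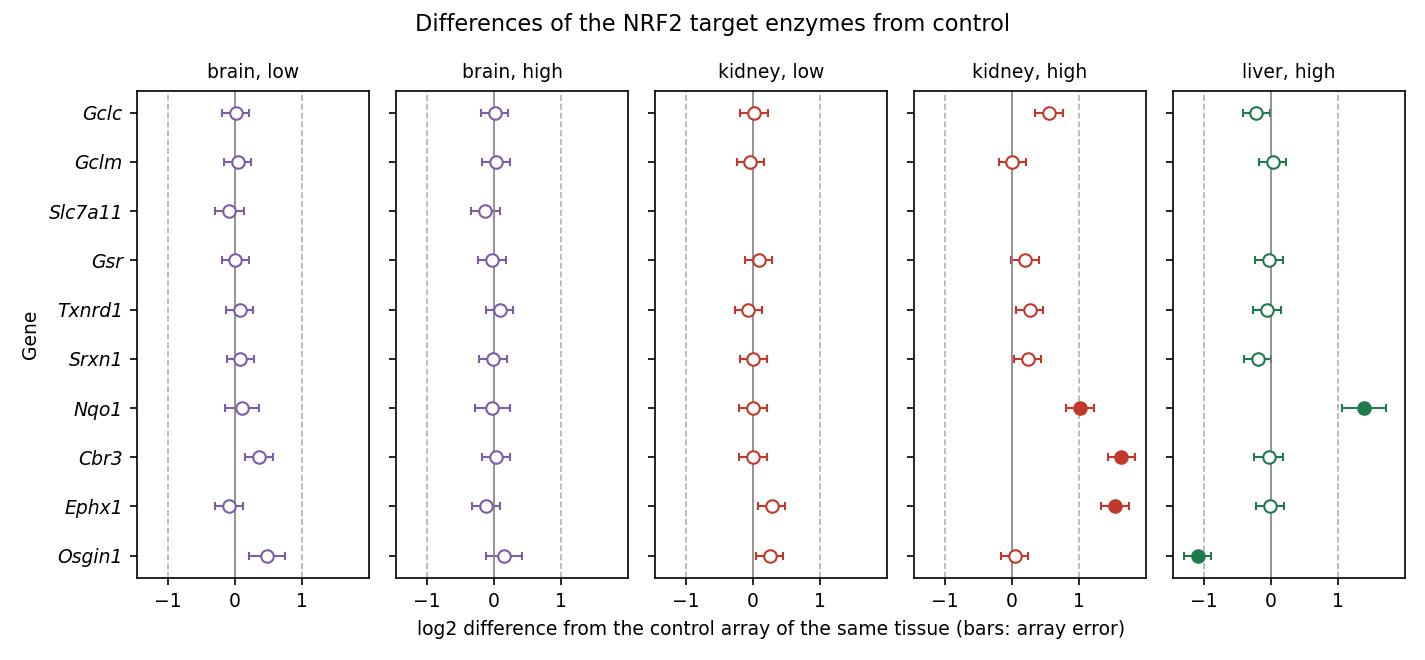
Difference of each measured gene from the control array of its tissue, in log2 units, for the 5 comparisons; bars are the array error, dashed lines mark -1 and 1, and filled symbols passed the size rule. Cbr3 (1.63), Ephx1 (1.53) and Nqo1 (1.02) are filled in the high-dose kidney, and Nqo1 (1.39) and Osgin1 (-1.09) in the high-dose liver.

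In kidney, the high-dose array was set against the low-dose array as well. Cbr3 (1.62), Ephx1 (1.26) and Nqo1 (1.02) were again at least 1 higher, 3 of 9 members, where 0.842% of 20896 genes were higher (1.08% in either direction). Nqo1 fell short there with median scaling or quantile normalization (0.98 for each) and with normexp (0.89). This comparison shares its high-dose array with the one against control. In brain, 0 of 10 members differed between high and low dose (1.05% of 23172 genes in either direction).

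Whether the high-dose differences were larger in kidney than elsewhere was asked directly. The kidney difference of Cbr3 exceeded that of liver by 1.66 (array error 0.30) and that of brain by 1.60 (0.29). For Ephx1 the excess was 1.54 over liver and 1.65 over brain (array error 0.29 for each). Nqo1 exceeded the brain by 1.04 (0.33) but not the liver, at -0.37 (0.38). Gclc exceeded liver by 0.77 and brain by 0.54 (0.29 for each). Osgin1 exceeded liver by 1.13 (0.29), where the liver difference was -1.09 and that of kidney 0.04, but not brain, at -0.11 (0.34). Cbr3 and Ephx1 were the 2 members past the size rule against both tissues. This count was made for the members only. No share over all genes stands beside it, so nothing particular to the members is read from it.

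A limma fit of all 8 arrays with tissue, dose and a term for the high dose in kidney was added after the data had been seen. It has 2 residual degrees of freedom. Its dose terms are shared by the tissues and also draw on the low-dose arrays, so its kidney term differs from the direct differences above. The kidney term rests on the 1 high-dose kidney array, which the model fits exactly and which is assumed to vary like the other arrays, so its SE and p come from the other arrays and give no replicate check of the kidney difference. It called 34 of 17448 genes at a Benjamini-Hochberg adjusted p under 0.05, or 0.195%, of which 33 were higher in the kidney. Of 9 members fitted, 2 were called, Cbr3 at 1.76 (SE 0.16, adjusted p = 0.0202) and Ephx1 at 1.46 (SE 0.13, adjusted p = 0.0202). Over 14 alternative settings the adjusted p ranged from 0.0112 to 0.191 for Cbr3 and from 0.00214 to 0.231 for Ephx1, and each was called in 9. Both calls were lost without the high-dose brain array (adjusted p = 0.0830 for each), without the control liver array (0.0506 and 0.0658) and without the high-dose liver array (0.0512 and 0.0664). They were also lost without an intensity trend (0.191 and 0.231, with 0 genes called in all) and with the wider gene filter (0.0545 and 0.0554). Gclc stood at 0.63 (SE 0.11, adjusted p = 0.209), and the 6 other members had an adjusted p of 0.522 or more.

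An effect of dose shared by the tissues was fitted with limma on the same arrays, with tissue and dose as additive factors. At the high dose 0 of 9 members and 0 of 17448 genes passed an adjusted p of 0.05, and 1180 genes had an unadjusted p under 0.05. Nqo1 had the largest shared high-dose estimate among members, 0.79 (SE 0.27, adjusted p = 0.689). It was higher in kidney and liver but not in brain. At the low dose 0 members and 0 genes passed, with 421 genes at an unadjusted p under 0.05.

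The same fit gave the order of the tissues. Between kidney and brain 8 of 9 members were called, 7 higher in kidney, where 80.9% of all genes were called. Between kidney and liver 8 of 9 were called, 3 higher in kidney and 5 lower (73.9% of genes), and between liver and brain 7 of 9, with 6 higher in liver (85.5% of genes). Most genes of the array were called in these contrasts, so nothing particular to the members is read from the counts. Gclc, Gclm, Txnrd1, Osgin1 and Ephx1 were highest in liver, then kidney, then brain. Osgin1 spanned the most, 9.16 higher in liver than in brain (SE 0.25, limma adjusted p = 1.92e-08). Gsr was highest in kidney, 0.59 above liver (SE 0.07, adjusted p = 0.000123). Nqo1 was higher in kidney than in liver by 2.59 (SE 0.31, adjusted p = 0.00017), and the liver was not called against brain (0.56, SE 0.31, adjusted p = 0.124) except in 3 of 15 alternative settings, such as median scaling (0.028). Cbr3 ran the other way, highest in brain and 2.86 lower in kidney (SE 0.35, adjusted p = 0.000136). With dose in the model, Cbr3 was 1.17 higher in kidney than in liver (adjusted p = 0.0356). That call was lost in 4 of 15 alternative settings. These were without the high-dose liver array, without the control brain array (0.0585), without an intensity trend (0.0672) and with the wider gene filter (0.0552). Ephx1 was 1.07 higher in kidney than in brain (adjusted p = 0.0106), a call lost without the high-dose brain array (0.0538). Srxn1 was called between no pair of tissues, with differences of -0.19 to -0.04. In 5 of 15 alternative settings it was called lower in kidney than in brain, among them without the high-dose kidney array (adjusted p = 0.00322) and without either liver array (0.0371 and 0.037). In 3 of 15 it was called lower in liver than in brain, by -0.72 with quantile normalization and -0.56 with normexp, against -0.15.

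The regulators of NRF2 were measured on all 8 arrays. Nfe2l2 stood at 1.92, 2.10 and 2.16 in kidney, a high-dose difference of 0.24 (array error 0.20), at 2.58 and 2.67 in liver and at -0.50, -0.43 and -0.37 in brain. The high-dose kidney differed from control by 0.01 for Keap1 and by 0.01 for Bach1. Of 12 regulators, 1 passed the rule in the high-dose kidney, the small MAF gene Maff, at -4.06, -4.05 and -2.93 for control, low and high dose (1.12, array error 0.32). Maff is dim in kidney. Its levels there lie below -2, which the stricter filter on dim probes requires, so it would not count under that filter. Of all genes tested there, 1.66% passed in either direction. The median difference of the 12 was 0.06, against -0.03 for all genes.

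Of 30 other NRF2 targets in a list of glutathione transferases, exporters, NADPH enzymes and related genes, 29 were measured on both kidney arrays. At the high dose 8 were higher and 0 lower, where 1.12% of all genes were higher and 0.539% lower. Of the 29 differences 28 were positive, and their median was 0.36, beside 0.27 for the 9 measured members and -0.03 for all genes. The largest were glutathione transferases, which couple electrophiles to glutathione. Gsta2 stood at 0.87, 0.89 and 3.51 in control, low-dose and high-dose kidney. Gstm3 stood at 5.63, 5.87 and 7.36, Gstm4 at 0.74, 0.84 and 2.39 and Gstm1 at 5.58, 5.72 and 7.16. In each of the 4 the high-dose kidney was the array that stood apart, by 2.64, 1.72, 1.65 and 1.58. The Gstm genes are close paralogs whose probes may share signal. The remaining higher genes, chosen here after their values were seen, were the efflux pumps Abcc3 (1.53) and Abcc4 (2.83-fold), Gstp1 (1.23) and the heme oxygenase Hmox1 (1.18). None of 28 in the high-dose liver and none of 29 in the low-dose kidney passed the rule (0.803% and 0.492% of all genes, in either direction). In the fit with the kidney term, 6 of the 24 that could be fitted were called higher, Gstm4 (1.65), Gstm3 (1.58), Gstm1 (1.47), Gstp1 (1.35), Abcc4 (1.32) and Hmox1 (1.10), and that count ranged from 0 without an intensity trend to 6. The same fit called 3 of 9 hepatocyte markers higher, so calls of this kind are not particular to NRF2 targets.

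**Figure D3:**
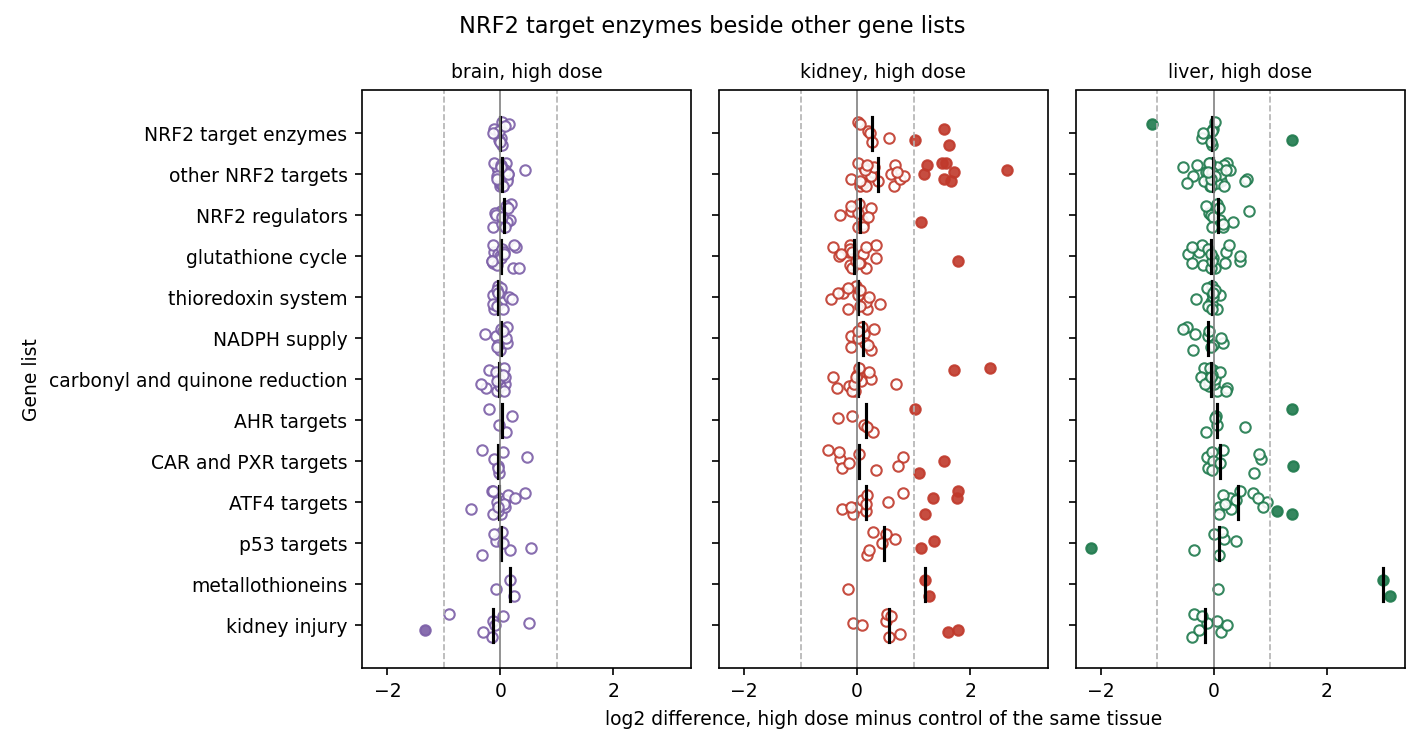
Difference between the high-dose and control array of brain, kidney and liver, in log2 units, for each measured gene of 13 lists; black bars are list medians, dashed lines mark -1 and 1, and filled symbols passed the size rule. In the kidney, 8 symbols of other NRF2 targets and 4 of ATF4 targets are filled, and the thioredoxin and NADPH lists have none.

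The enzyme systems that these genes feed were listed too. These lists share genes with others and are not independent. Txn1, Prdx1, G6pdx, Pgd, Taldo1, Tkt and Me1 are also in the list of other NRF2 targets. Chac1 and Slc3a2 are also in the list of ATF4 targets. Of all genes tested in the high-dose kidney, 1.12% were higher than the control and 0.539% lower. In the high-dose kidney 1 of 18 genes of the glutathione cycle was higher, Chac1, which degrades glutathione (-2.45 in control, -2.56 at the low dose, -0.66 at the high dose). None of 13 genes of the thioredoxin system and none of 10 genes of NADPH supply passed, with largest differences of -0.46 for Txnip and 0.30 for Pgd. Of 16 other reductases and dehydrogenases of carbonyls and quinones, 2 were higher, Akr1c13 (1.07, 1.58 and 3.42 in control, low-dose and high-dose kidney) and Aldh1a1 (0.16, -0.05 and 1.87). Aldh1a1 was called by the fit with the kidney term (1.76, SE 0.11, adjusted p = 0.00693). The liver differences of Akr1c13 and Aldh1a1 were -0.17 and -0.02.

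Some members are also targets of other receptors, so those lists are given beside them. Over all genes tested, 1.66% passed the rule in either direction in the high-dose kidney and 0.803% in the high-dose liver. The counts below include the members Nqo1 and Ephx1. Nqo1 responds to the aryl hydrocarbon receptor as well, and it was the only gene of that list, 1 of 6, to pass the rule in either organ at the high dose. Ephx1 responds to the receptors CAR and PXR as well. In that list 2 of 11 passed in kidney, Ephx1 and the P-glycoprotein gene Abcb1a (1.10), and in liver 1 of 11, Cyp2a5, at 6.07 in control and 7.47 at the high dose (1.40). Of 14 measured ATF4 targets, genes of amino acid and endoplasmic reticulum stress, 4 were higher in the high-dose kidney, Chac1 (1.79), Trib3 (1.76), Atf3 (1.34) and Asns (1.20). In liver 2 of 14 passed, and Asns stood at -1.41 in control and -0.03 at the high dose. Of the p53 targets, Phlda3 (1.36) and Cdkn1a (1.13) were higher in the high-dose kidney, 2 of 8, while in liver Cdkn1a was lower, at -1.09 in control and -3.27 at the high dose. The metal-binding Mt1 and Mt2 were higher in the high-dose kidney (1.27 and 1.20) and in the high-dose liver (3.11 and 2.99). Of 9 measured kidney injury genes, Havcr1 (1.78) and Lcn2 (1.62) were higher.

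Markers of other cell types differed on the same kidney array, where 1.12% of all genes tested were higher and 0.539% lower than in the control. Of 16 measured hepatocyte markers, 7 were higher and 2 lower than in the control kidney, with a median difference of 0.62, led by Serpina1a (1.48, 1.79 and 4.77 for control, low and high dose; one of a family of near-identical genes). Albumin, Alb, was at -2.36, -2.46 and -1.13 on the kidney arrays and at 9.62 on the control liver array. Apoa1 and Cps1, which define hepatocytes, were not well above background on the control or the high-dose kidney array, while Fgb and F2 were so at the high dose but not in the control. Ephx1, the Gstm genes, Gstp1, Gsta2, Abcc3, Aldh1a1 and Akr1c13 have higher levels in control liver than in control kidney, with Abcc3 at 4.37 against -2.47 and Gsta2 at 2.38 against 0.87, and the part of hepatocyte RNA in their kidney differences was not tested. Cbr3, Nqo1, Hmox1 and Abcc4 stood lower on the control liver array than on the control kidney array, at -1.66 against -1.14, -3.60 against -0.72, 2.10 against 2.33 and -3.20 against -0.05. For these genes the part of hepatocyte RNA was not tested either. The 14 proximal tubule markers had a median difference of -0.17 with 0 past the rule, and 9 macrophage markers of 0.54 with 0 past it. Of 9 measured collecting duct and urothelium markers 2 were higher, and the urothelial Upk3a stood at -3.39, -0.92 and -1.09 for control, low and high dose. The 9 adipocyte markers summed to 5.55 in control and 4.94 at the high dose, with 1 lower. All 6 measured spermatid markers were higher, by 2.01 to 3.56. On the high-dose brain array, 3 of 3 measured spermatid markers were higher by 3.60 to 5.54. The reported probes of the members there differed from control by -0.13 to 0.15, and the second Slc7a11 probe by 0.43. The part of spermatid RNA in the levels of the members was not tested in brain or kidney.

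**Figure D4:**
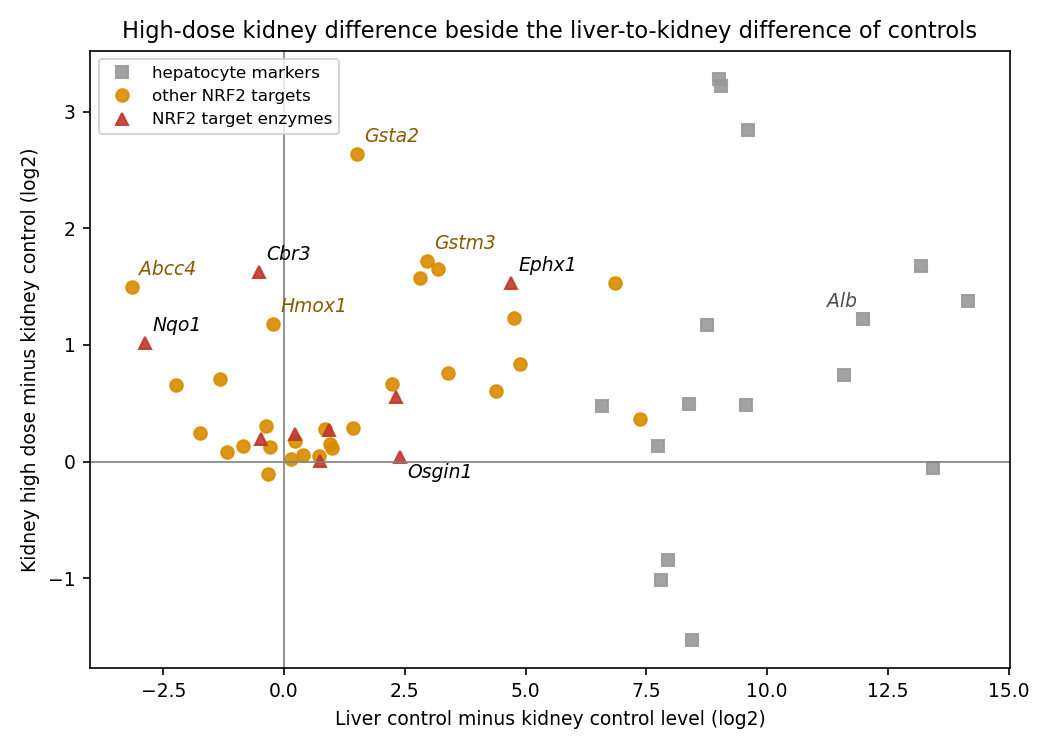
Kidney difference at the high dose (vertical, log2) against the level in control liver minus that in control kidney (horizontal, log2) for the NRF2 target enzymes (triangles), other NRF2 targets (circles) and measured hepatocyte markers (squares). Cbr3 and Nqo1, with kidney differences of 1.63 and 1.02, lie left of 0, where control liver is lower than control kidney, Ephx1 lies to the right, and the hepatocyte markers lie further right.

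The genes whose levels followed Nqo1 most closely over the 8 arrays were ranked by Pearson correlation among 17449 genes. They were Gm10463 (r = 0.987), AA986860 (0.986), Scnm1 (0.985), Rarg (0.984) and 1 transcript model without a gene name (0.983). These values describe 8 points that share 3 tissues, and Rarg, a retinoic acid receptor, spanned only from 0.02 to 0.84.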

How the data were processed

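Total RNA of 8 samples, 1 per tissue and dose as the labels give them, was labelled with Cy3 and hybridised to Agilent arrays of 1 slide. Each deposited file gives linear intensity per spot, from which the authors' scanner software had subtracted background and spatial trends, per the file headers, without scaling arrays to each other. The submitters' processing notes name Agilent Feature Extraction, version 12.0.3.1. The deposited value table holds the same intensity divided by each array's 75th percentile, found by comparison with the scanner files, with column medians of 0.0905 to 0.114. It is therefore linear, uncentred by gene, and larger for brighter spots. The flags are those of the scanner software, per the file headers.

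Control spots and spots flagged as not uniform or outlying were left out, spots of a probe were averaged as log2 values, and the array's 75th percentile was subtracted. A gene was reported by its brightest probe. Names were updated through RefSeq accessions (GRCm38.p6, for names only), which matched 32994 of 56605 probes and changed 1535 names. Probe positions are in mm9, and promoter positions in GRCm38.p6. With 1 array per group, the difference of 2 arrays within a tissue was given no test. Effects were fitted with limma 3.58.1 (R 4.3.3, empirical Bayes with an intensity trend, Benjamini-Hochberg adjustment over all genes) on the 17448 genes well above background on all 8 arrays. Every adjusted p in the text is from limma. These p-values rest on the spread between single arrays of 3 tissues, and the labels do not say whether the arrays are of separate mice. Other steps ran in Python 3.11.15 (pandas 2.3.3, numpy 2.4.6; figures with matplotlib 3.10.9). The size rule and the limma fits were tried on simulated data with known changes. Noise came from the array errors for the size rule and from the residual spread of these 8 arrays for limma. The array errors hold no variation between mice, so these runs do not stand in for replicates.

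The genes, the 27 lists and the rules were chosen with earlier results of these data known. Named from each list were up to 4 genes with the largest high-dose kidney difference, beside Nfe2l2, Keap1 and Bach1, and the 5 genes outside the members most like Nqo1. Further names were chosen after their values were seen, namely the rest of the genes past the rule in the list of other NRF2 targets and of those called by the fit with the kidney term. Alternatives changed the normalization, scaling, filter, probe rule, threshold, value table, intensity trend and arrays used.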

Additional observations from a re-analysis of the deposited data

Results flagged for a closer look

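These 2 results stand out among the members because the high-dose difference of a gene in kidney differed from that in liver and brain. The direct excess over both tissues was not computed for all genes. The kidney difference of Cbr3 exceeded that of liver by 1.66 and that of brain by 1.60 on the log2 scale. Its kidney term in the limma fit, added after the data had been seen, was 1.76. The high-dose kidney array was higher than its control by 1.63, while liver differed by -0.03 and brain by 0.03. For Ephx1 the excess was 1.54 over liver and 1.65 over brain, and the kidney term was 1.46. Its differences from control were 1.53 in kidney, -0.01 in liver and -0.12 in brain. In each case 1 high-dose kidney array carries the result. The fit assumes that this array varies like the others, so the p-values of the fit give no replicate check of the kidney difference. Each call of the fit was lost in 5 of 14 alternative settings. Some hepatocyte markers were higher on that array too and others lower, and the measured spermatid markers were higher. The part of either in the result was not tested.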

How the results depend on the processing

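In the high-dose liver, 2 members passed the size rule, and the count was 0 with normexp and quantile normalization (Nqo1 0.82, and Osgin1 just short of the threshold), 1 with quantile normalization (Osgin1 -0.94) and 1 with the stricter filter, under which Nqo1 was too dim. Against the control, 2 or 3 members passed in the high-dose kidney under each of the 8 alternatives run, with Nqo1 the one that was lost. The 2 members called for a larger difference in kidney were 0 without an intensity trend and 0 with genes well above background in 1 tissue, and ranged from 0 to 2 when single arrays were left out. Among 452 other values of differences, 447 stayed within the array error and 5 moved further, among them Cbr3 in the high-dose kidney (1.39 with normexp). Of 801 values of the limma fits, 775 kept their call, 15 lost it, 11 gained one and 0 changed sign with a call. Leaving out an array was not possible for the size rule, since each group has 1, and in the fit with the kidney term the high-dose kidney array could not be left out. No paired analysis was possible because each group has 1 array and groups share fewer than 2 replicate numbers. The arrays give no read depth, and Slc7a11 in kidney and liver was too close to background for a difference.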
